A study of Rattus norvegicus with 15 samples.

Results

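The genes described here set the pace of the G1 phase of the cell cycle: the D-type cyclins Ccnd1, Ccnd2 and Ccnd3, cyclin E1 (Ccne1), the kinases Cdk4 and Cdk6, the kinase inhibitors Cdkn1a (p21), Cdkn1b (p27) and Cdkn2c (p18), and the retinoblastoma gene Rb1. Members were all probe sets whose only gene symbol in the array's annotation was 1 of these 10 genes. This gave 15 probe sets of the 31042 on the array that are not controls. Of these, 12 probe sets of 9 genes passed the filter on low values (an intensity of at least 16, or 4 on the log2 scale, on at least 3 of the 15 arrays) and were tested among 15856 probe sets. The other 3, for Cdk6, Cdkn1b and Cdkn2c, were under 16 on every array.

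RNA came from rat spermatogonial stem cells, the self-renewing germ cells of the testis, grown in serum-free medium with the growth factor GDNF. After a month of expansion the cultures were divided over 5 groups of 3 independent cultures: a control kept with GDNF, 18 h of GDNF withdrawal, and 18 h of withdrawal followed by GDNF return for 2, 4 or 8 h. Each culture was read on 1 single-colour expression array, so the number of arrays limits the precision. Every group, the control included, is a month-old culture expanded with GDNF, and the labels state no strain, age or genetic change. The 5 groups include no culture left without GDNF beyond 18 h, so the return of GDNF and the time since it was removed cannot be told apart.

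D cyclins bind CDK4 or CDK6 and begin the phosphorylation of the RB protein, which releases E2F transcription factors and lets cyclin E with CDK2 carry the cell into S phase. Inhibitors of the CIP/KIP family (p21, p27, p57) bind cyclin and kinase complexes of several kinds, and those of the INK4 family (p15, p16, p18, p19) bind CDK4 and CDK6. In the mouse, cyclin D2 is known as the D cyclin of spermatogonia that enter differentiation, and its gene has been tied to GDNF and Ras signalling in cultured germline stem cells. Much of the control of these proteins, p27 above all, lies in their turnover and phosphorylation, which an RNA array does not measure.

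The share of probe sets at an intensity of 16 or more was 50.1% to 50.4% on each array, and no array stood out by its median. Markers of the labelled cell type were present: of 12 germ cell and spermatogonia genes listed, 7 had a probe set of their own and 5 passed the filter (Sall4, Ret, Id4, Epcam and Cdh1), while Gfra1 and Lin28a were under it. Their summed intensity ran from 15524 to 16824 in control, from 11872 to 13231 after withdrawal, from 11574 to 12076 at 2 h, from 12835 to 13733 at 4 h and from 14311 to 14769 at 8 h. The sum is carried mostly by Epcam and Ret, and the mean log2 intensity of the 5 genes differed less, at 10.09 ± 0.07 in control, 9.98 ± 0.16 after withdrawal, 10.01 ± 0.03 at 2 h, 10.02 ± 0.06 at 4 h and 10.06 ± 0.03 at 8 h (SD, n = 3 each). Mesenchymal (fibroblast or feeder) genes were also present, with 11 of 16 tested (Col6a1, Pdgfrb, Lum, Postn and Tagln under the filter). Their sum ran from 4189 to 5998 in control, from 3265 to 5588 after withdrawal, from 3067 to 3469 at 2 h, from 3285 to 4543 at 4 h and from 4902 to 5938 at 8 h. Of 9 Sertoli cell genes 6 had a probe set of their own and 3 passed (Wt1, Clu and Dhh). Their sum, almost all of it Clu, ran from 3089 to 3213 in control and from 3415 to 3653 after withdrawal. At 2, 4 and 8 h it ran from 3300 to 3404, from 3118 to 3331 and from 3575 to 3672. Wt1 and Dhh lay close to the filter, at means of 22.98 and 25.62 over all arrays. The mean log2 intensity of the 3 genes was 7.31 ± 0.06 in control and 6.58 ± 0.05 after withdrawal. It was 6.64 ± 0.04 at 2 h, 6.91 ± 0.09 at 4 h and 6.80 ± 0.09 at 8 h. All 7 immune or blood genes with a probe set were under the filter. Control 1, withdrawal 1 and 4 h 1 lay lowest on the first principal component of the deviations from the group means, and member results that change without these 3 arrays are marked. The direction of the component is arbitrary. On its other side control 2 (0.43) and withdrawal 3 (0.41) lay further out than control 1 (-0.32) and 4 h 1 (-0.39), and these were left out only singly.

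The start-site sequences of the 2 CIP/KIP inhibitors are shown because these genes had the widest ranges over the course among the 3 member inhibitors and moved in opposite directions after GDNF return. Of the 10 members 7 had an entry in the RefSeq promoter table (assembly GRCr8, 250 bases before to 50 after the start), and Ccnd1, Ccnd2 and Cdk6 had none. Motifs searched on both strands were a forkhead site (GTAAACA), an E2F site (TTTNNCGC), an Sp1 box (GGGCGG), an EGR site (GCGNGGGCG), a CCAAT box (CCAAT) and a TATA box (TATAAA), with capitals marking matches. The Cdkn1b window lies at chr4:169491254-169491553 and the Cdkn1a window at chr20:7150682-7150981, both on the plus strand.
Cdkn1b: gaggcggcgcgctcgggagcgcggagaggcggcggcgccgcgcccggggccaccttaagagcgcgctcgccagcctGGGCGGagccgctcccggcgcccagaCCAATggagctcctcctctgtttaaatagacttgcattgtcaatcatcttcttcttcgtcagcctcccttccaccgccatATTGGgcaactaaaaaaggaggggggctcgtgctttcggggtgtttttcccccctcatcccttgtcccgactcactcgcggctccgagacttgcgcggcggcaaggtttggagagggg
Cdkn1a: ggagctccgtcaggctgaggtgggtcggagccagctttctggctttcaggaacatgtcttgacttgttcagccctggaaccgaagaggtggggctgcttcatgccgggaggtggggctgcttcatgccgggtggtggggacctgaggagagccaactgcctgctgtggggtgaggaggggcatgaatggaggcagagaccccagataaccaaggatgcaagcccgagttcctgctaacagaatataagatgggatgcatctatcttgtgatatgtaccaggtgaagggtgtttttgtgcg
The Cdkn1b window held 1 Sp1 box beginning 174 bases before the start and 2 CCAAT boxes, 148 bases before it on the plus strand and 68 bases before it on the minus strand. None of the 6 motifs was found in the Cdkn1a window. GC content was 64.7% for Cdkn1b and 56.7% for Cdkn1a, against a median of 51.7% over all promoters in the table. Among the 33469 promoters of the table, 3.78% held the forkhead letters, 4.92% the E2F letters, 33.1% the Sp1 box, 4.98% the EGR letters, 37.5% CCAAT and 14.2% TATAAA. The Rb1 window held 6 Sp1 boxes, 2 EGR matches and 1 E2F match, which overlap in part, that of Ccne1 3 Sp1 boxes and 1 EGR match, and that of Ccnd3 3 Sp1 boxes and 1 CCAAT box. Cdk4 and Cdkn2c had 1 Sp1 box each, and no member window held the forkhead letters. These matches are letters in a window, not shown sites of binding.

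Over the 5 groups, 6 of the 12 tested member probe sets passed the F test (limma, Benjamini-Hochberg adjustment over all 15856 probe sets, threshold 0.05), where 49.6% of all tested probe sets did. The 6 were those of Ccnd2 (adjusted p = 1.17e-06), the brighter Cdkn1a probe set (2.91e-05), Cdkn1b (0.000104), Cdk4 (0.000152), Rb1 (0.000685) and Ccnd3 (0.0344). Their distance between the highest and lowest group mean was 1.22 on the log2 scale for Ccnd2, 0.94 for Cdkn1b, 0.68 for Cdkn1a, 0.43 for Rb1, 0.32 for Ccnd3 and 0.28 for Cdk4. Ccnd2 was the 1 member whose group means spanned more than 2-fold, and the share of members past the F test was near that of the array as a whole.

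On withdrawal against control, 4 of 12 member probe sets passed the test (Cdkn1b higher; Ccnd2, Ccnd3 and Rb1 lower), where 21.1% of all probe sets did. At 2 h against withdrawal 4 passed (Cdkn1a higher; Cdkn1b, Cdk4 and a Ccnd1 probe set lower) against 26.1%, and at 4 h against withdrawal 5 passed (Ccnd2 and Cdkn1a higher; Cdkn1b, Cdk4 and Rb1 lower) against 30.6%. At 8 h against withdrawal 3 passed (Ccnd2 higher; Cdkn1b and Cdk4 lower) against 25%, and at 8 h against control 2 passed (Cdk4 and Rb1, both lower) against 12.3%. Between 8 h and 2 h 2 passed (Ccnd2 higher, Cdkn1a lower) against 26.2%. The members' shares of 16.7% to 41.7% were thus near the background in each comparison, and their median log2 change lay between -0.12 and 0.07 over the 6 comparisons, against -0.02 to 0.01 for all tested probe sets. The comparisons at 2, 4 and 8 h share the 3 withdrawal arrays, and those against control share the 3 control arrays, so their changes are not independent. Among all tested probe sets, the arrays of the groups compared did not overlap for 34.26% on withdrawal against control. At 2, 4 and 8 h against withdrawal this share was 42.73%, 41.35% and 40.94%, and over all 10 comparisons it ran from 29.45% to 45.58%. Groups whose arrays do not overlap, as told for members below, are thus common on this array. In cultured populations such as these, fewer cells of a type and less RNA per cell cannot be told apart.

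**Figure D1:**
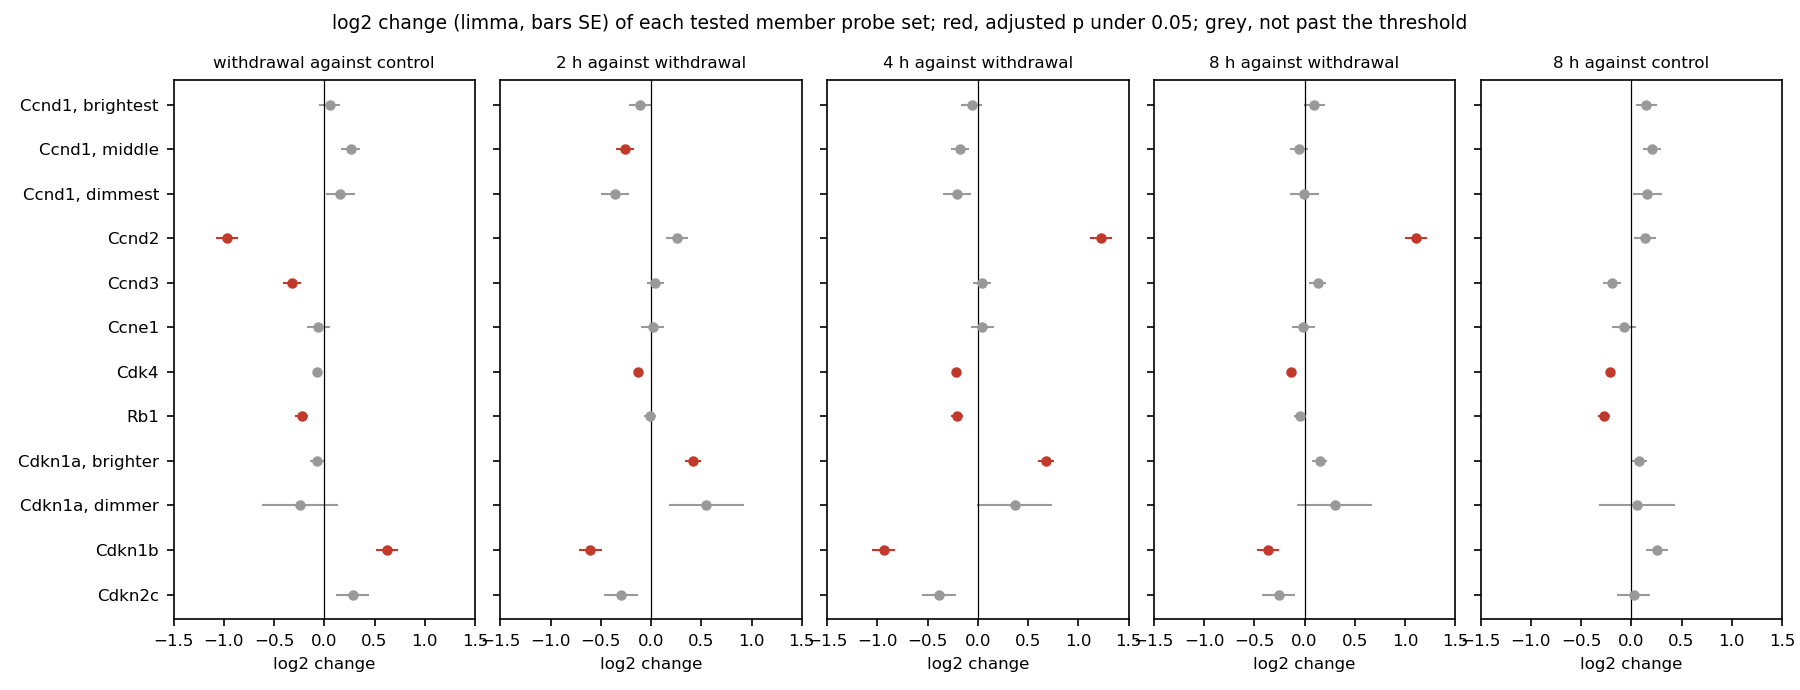
log2 change with its SE (limma) of the 12 tested member probe sets in 5 comparisons, withdrawal against control, 2 h, 4 h and 8 h of GDNF return against withdrawal, and 8 h against control, with red points past an adjusted p of 0.05 and grey points not. Ccnd2 lies at -0.97 after withdrawal and at 1.22 and 1.11 at 4 and 8 h, Cdkn1b at 0.62 after withdrawal and at -0.60, -0.94 and -0.37 on return, and Ccne1 near 0 throughout.

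Ccnd2, cyclin D2, had the largest change of the family. Its probe set read 707.4, 809.5 and 852.6 in the 3 control cultures, 331.9, 467.1 and 419.6 after withdrawal, 497.3, 469.2 and 480.9 at 2 h, 816, 1015 and 998.2 at 4 h and 886.9, 818.7 and 894.1 at 8 h. All withdrawal and 2 h arrays lay below all control, 4 h and 8 h arrays, and the 2 h arrays lay just above the withdrawal arrays. Group means were 406.2 ± 68.6 after withdrawal and 789.8 ± 74.6 in control (SD, n = 3 each), a fold of 1.96 down (log2 change -0.97 ± 0.11 SE, limma adjusted p = 1.96e-05). At 2 h the mean was 482.4 ± 14.1, higher than withdrawal by 0.26 on the log2 scale, which did not pass the test (adjusted p = 0.0933; 0.033 without withdrawal 2). At 4 h it was 942.96 ± 110.2, 2.33-fold over withdrawal (1.22 ± 0.11, adjusted p = 1.04e-06), and at 8 h 866.6 ± 41.6, 2.15-fold over withdrawal (1.11 ± 0.11, adjusted p = 4.39e-06). The step to the control level thus fell between 2 h and 4 h: 4 h exceeded 2 h by 0.96 ± 0.11 (adjusted p = 4.05e-05), where 13.7% of all probe sets passed in that comparison, and 8 h exceeded 2 h by 0.84 ± 0.11 (6.63e-05).

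In the order of its levels Ccnd2 ran withdrawal, 2 h, control, 8 h and 4 h. Of neighbours in this order, control exceeded 2 h (log2 change of 2 h against control -0.71 ± 0.11, adjusted p = 0.000321), a comparison in which 22.6% of all probe sets and 5 of the 12 members passed. Adjusted p was 0.473 for 8 h against control and 0.565 for 8 h against 4 h, whose arrays overlapped, while 2 h and withdrawal, given above, did not overlap and did not pass. The 4 h mean was 0.25 above control on the log2 scale (adjusted p = 0.118), and this passed without withdrawal 1 (0.0478), without 4 h 1 (0.0448), without the 3 arrays named above together (0.0169) and with the mesenchymal markers as a covariate (0.0196). The summed germ cell markers given above were also lowest after withdrawal and at 2 h, and at 4 h they were still below every control array where Ccnd2 was not. The mean log2 of the 3 Sertoli genes was likewise lowest after withdrawal and at 2 h, with Wt1 and Dhh close to the filter. Their sum, almost all of it Clu, went the other way, with every withdrawal and 2 h array above every control array. The part of these markers in the Ccnd2 result was not tested.

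**Figure D2:**
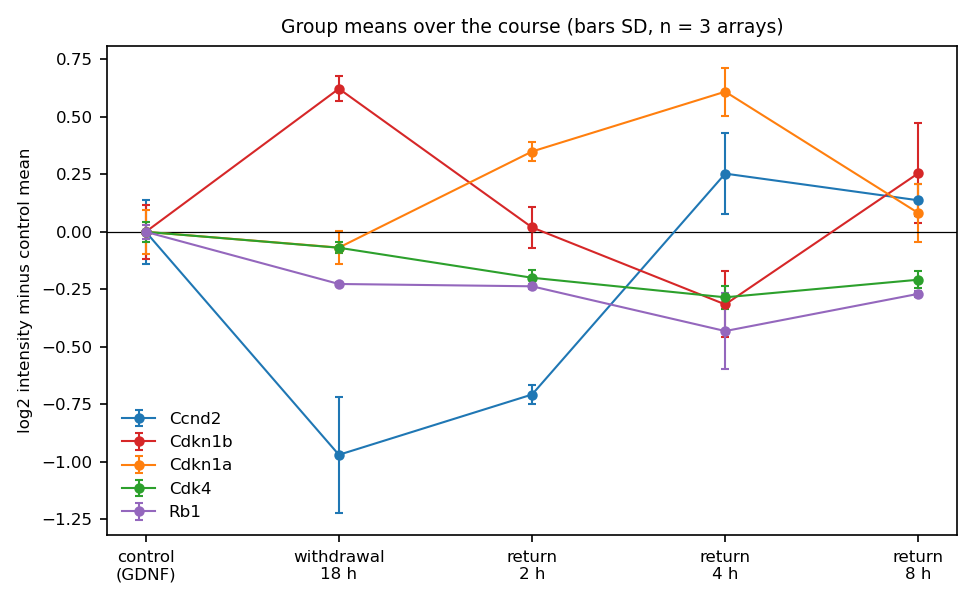
Mean log2 intensity minus the control mean (y axis) of Ccnd2, Cdkn1b, Cdkn1a, Cdk4 and Rb1 in control, withdrawal and 2, 4 and 8 h of GDNF return (x axis, groups in order of the experiment), with bars of SD over 3 arrays. Ccnd2 is low after withdrawal and at 2 h, Cdkn1b is highest after withdrawal and lowest at 4 h, and Cdkn1a is highest at 4 h.

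Ccnd3, cyclin D3, fell on withdrawal and then stayed between the control and withdrawal levels. Intensities were 589.3, 562.4 and 609.8 in control, 456.4, 445.6 and 510.3 after withdrawal, 494.9, 469.7 and 489.3 at 2 h, 548.2, 407.8 and 506.2 at 4 h and 497.3, 518.5 and 527.5 at 8 h. Every control array lay above every other array, and the other 4 groups overlapped in part, with the 4 h arrays widest apart. The mean was 470.8 ± 34.7 after withdrawal and 587.2 ± 23.8 in control, 1.25-fold lower (log2 change -0.32 ± 0.09, limma adjusted p = 0.0161). This call was lost without control 3 (adjusted p = 0.0566), withdrawal 1 (0.0539) or withdrawal 2 (0.068), and without the 3 arrays named above together (0.0605). Against withdrawal, none of 2 h, 4 h and 8 h passed (adjusted p = 0.75, 0.762 and 0.302). Against control the log2 change was -0.28 at 2 h and -0.28 at 4 h (adjusted p = 0.0322 for each), and -0.19 at 8 h (0.176). The 2 h call was lost without control 1 (0.0751), control 3 (0.101) or any 2 h array (0.0649 to 0.0968). It was also lost without the filter (0.0773) and with the mesenchymal markers as a covariate (0.0516). The 4 h call was lost without control 1 (0.07), control 3 (0.102) or 4 h 2 (0.123). It was also lost without the filter (0.0768) and with only the groups compared in the fit (0.138).

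Ccnd1, cyclin D1, is read by 3 probe sets, and none of them passed the F test over the groups (adjusted p = 0.454 for the brightest, 0.0689 for the middle one and 0.167 for the dimmest, ranked by mean over all arrays). The brightest read 1437, 1740 and 1194 in control, 1303, 1594 and 1606 after withdrawal, 1412, 1306 and 1439 at 2 h, 1372, 1469 and 1459 at 4 h and 1548, 1669 and 1577 at 8 h. All its groups overlapped the control range. The middle probe set read 1156, 1279.8 and 1020.1 in control, 1216, 1438 and 1486 after withdrawal, 1213, 1184 and 1056 at 2 h, 1215, 1215 and 1219 at 4 h and 1300.2, 1466 and 1211 at 8 h. It was the 1 Ccnd1 probe set past the threshold in a comparison: 1151 ± 83.6 at 2 h and 1379.9 ± 144 after withdrawal, 1.20-fold lower (log2 change -0.26 ± 0.09, limma adjusted p = 0.0485). That call held in 10 of 26 alternative settings, and leaving out control 1, withdrawal 2 or 3, any 2 h array, any 4 h array or 8 h 1 ended it (adjusted p = 0.0563 to 0.183). Its withdrawal change of 0.26 ± 0.09 did not pass (adjusted p = 0.0542), though it did without control 2 (0.024), withdrawal 1 (0.0172) or 8 h 2 (0.0459), and without the 3 arrays named above together (0.0433). With all arrays it passed under a stricter filter (log2 of at least 6 on at least 3 arrays, 0.0417), array weights (0.0197) and a replicate block (0.0347).

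The dimmest Ccnd1 probe set was spread widest after withdrawal, at 569.5, 905 and 880.3, against 639.2, 785.6 and 647 in control. It read 604.6, 589.7 and 603.9 at 2 h, 592.2, 675.7 and 736.1 at 4 h and 743.2, 854.7 and 710.8 at 8 h. Withdrawal 1 was the lowest of all 15 arrays, and the other two withdrawal arrays were the highest. The log2 change was 0.16 on withdrawal (adjusted p = 0.476) and -0.36 ± 0.14 at 2 h against withdrawal (0.078). Without withdrawal 1 these values passed (adjusted p = 0.0213 and 0.00133), as did 4 h against withdrawal (0.00691) and 8 h against 2 h (0.0104), and the middle probe set then passed at 4 h against withdrawal (0.0418). Without the 3 arrays named above together the same changes of the dimmest probe set passed (0.0425, 0.000886, 0.023 and 0.00585). With all arrays its change at 2 h against withdrawal passed under array weights (0.0122) and a replicate block (0.0376), as did 8 h against 2 h (0.0265 and 0.0384). Withdrawal 1 was also the withdrawal array with the lowest mesenchymal markers, at a mean of 7.75 on the log2 scale, against 8.37 and 8.47 for the other two.

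Of the 3 Ccnd1 probe sets, 2 moved with the mesenchymal markers inside the groups. The share of all probe sets that did so is not given here, so this count has no background beside it. Cyclin D1 is made by many proliferating somatic cells, and which cells gave the Ccnd1 signal was not tested. Per unit of the markers' mean log2 intensity, log2 intensity rose by 0.48 ± 0.11 (SE) for the brightest, 0.34 ± 0.12 for the middle and 0.80 ± 0.09 for the dimmest Ccnd1 probe set, over 15 arrays with group in the fit. The slope passed for the brightest (limma adjusted p = 0.0305) and the dimmest (8.17e-05) and not for the middle one (0.141). The slopes of Ccnd2 and Cdkn2c were 0.41 ± 0.14 (0.145) and 0.72 ± 0.19 (0.0621), and those of Cdk4, Rb1 and Cdkn1b were 0.07 ± 0.06, 0.04 ± 0.10 and 0.20 ± 0.17. Marker means were 8.20 ± 0.39 after withdrawal and 8.25 ± 0.22 in control, and 7.80 ± 0.12, 8.08 ± 0.25 and 8.44 ± 0.14 at 2, 4 and 8 h (SD of log2, n = 3 each). With the markers as a covariate the log2 change of the middle probe set was 0.28 on withdrawal (adjusted p = 0.0122) and -0.12 at 2 h against withdrawal (0.33), and that of the dimmest was 0.20 on withdrawal (0.0223) and -0.20 at 8 h against withdrawal (0.0338). For the dimmest it was also -0.04 at 2 h against withdrawal (0.727) and -0.16 at 8 h against 2 h (0.23), where it was -0.36 and 0.36 without the covariate. Marker means ran from 7.68 to 7.91 at 2 h and from 8.31 to 8.59 at 8 h, without overlap. Between these groups the adjusted change of any probe set is therefore an extrapolation. With the same covariate Ccnd2 passed at 2 h against withdrawal (0.43, adjusted p = 0.00856) and at 4 h against control (0.32, 0.0196) and kept its other calls.

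**Figure D3:**
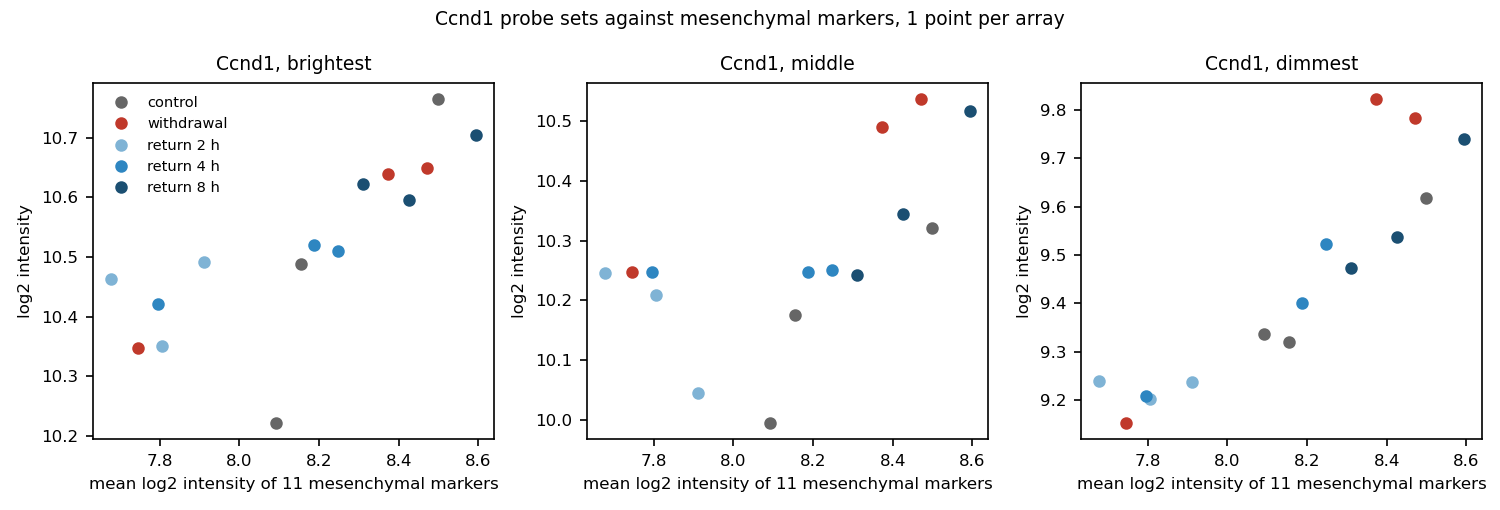
Log2 intensity of the 3 Ccnd1 probe sets (y axis) against the mean log2 intensity of 11 mesenchymal markers (x axis), 1 point per array, coloured by group. Arrays with higher markers read higher, with slopes past the threshold for the brightest (0.48) and the dimmest (0.80) probe set and not for the middle one (0.34), and withdrawal 1 sits apart from the other two withdrawal arrays.

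Ccne1, cyclin E1, showed no change past the threshold in any comparison. Its probe set read from 73.94 to 101.8 over the 15 arrays, and group means lay between 84.84 ± 2.88 at 8 h and 89.47 ± 9.32 in control. The F test gave an adjusted p of 0.971, and adjusted p ran from 0.756 to 0.962 in the 6 main comparisons. The groups overlapped throughout.

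Cdk4, the kinase partner of the D cyclins, fell after GDNF return, by a small and even amount. Intensities were 2437, 2402 and 2298 in control, 2233, 2309.6 and 2258 after withdrawal, 2095, 2099 and 2019 at 2 h, 1890.2, 1946 and 2023 at 4 h and 2113, 2058 and 2006 at 8 h. Every array after return lay below every control and withdrawal array, while withdrawal and control overlapped. Of all probe sets 42.73%, 41.35% and 40.94% likewise did not overlap at 2, 4 and 8 h against withdrawal. The log2 change on withdrawal was -0.07 ± 0.04 (limma adjusted p = 0.222). Against withdrawal it was -0.13 ± 0.04 at 2 h (0.0203), -0.22 ± 0.04 at 4 h (0.00057) and -0.14 ± 0.04 at 8 h (0.0146). Against control it was -0.20 at 2 h (0.00152), -0.28 at 4 h (9.12e-05) and -0.21 at 8 h (0.00236), with 21.6% of all probe sets past the threshold at 4 h against control. The 4 h mean was 1953 ± 66.6 and the control mean 2379 ± 72.1, 1.22-fold lower.

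In order from low to high, Cdk4 ran 4 h, 8 h, 2 h, withdrawal and control, and only the step between 2 h and withdrawal passed the test among neighbours (adjusted p = 0.227 for 8 h against 4 h, 0.903 for 8 h against 2 h). The 2 h call was lost without withdrawal 2 (0.0778) or 2 h 3 (0.0814) and with the marker covariate (0.101), and lay at 0.05 without an intensity trend. The 8 h call was lost without withdrawal 2 (0.0569) or 8 h 3 (0.0644) and with median centring of the arrays (0.0605). The calls at 4 h against withdrawal and at 2, 4 and 8 h against control held in all 26 settings. Cdk6, the second D cyclin kinase, had 1 probe set at 4.44 to 4.61 on all 15 arrays, under the filter, and was not tested in the main fit.

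**Figure D4:**
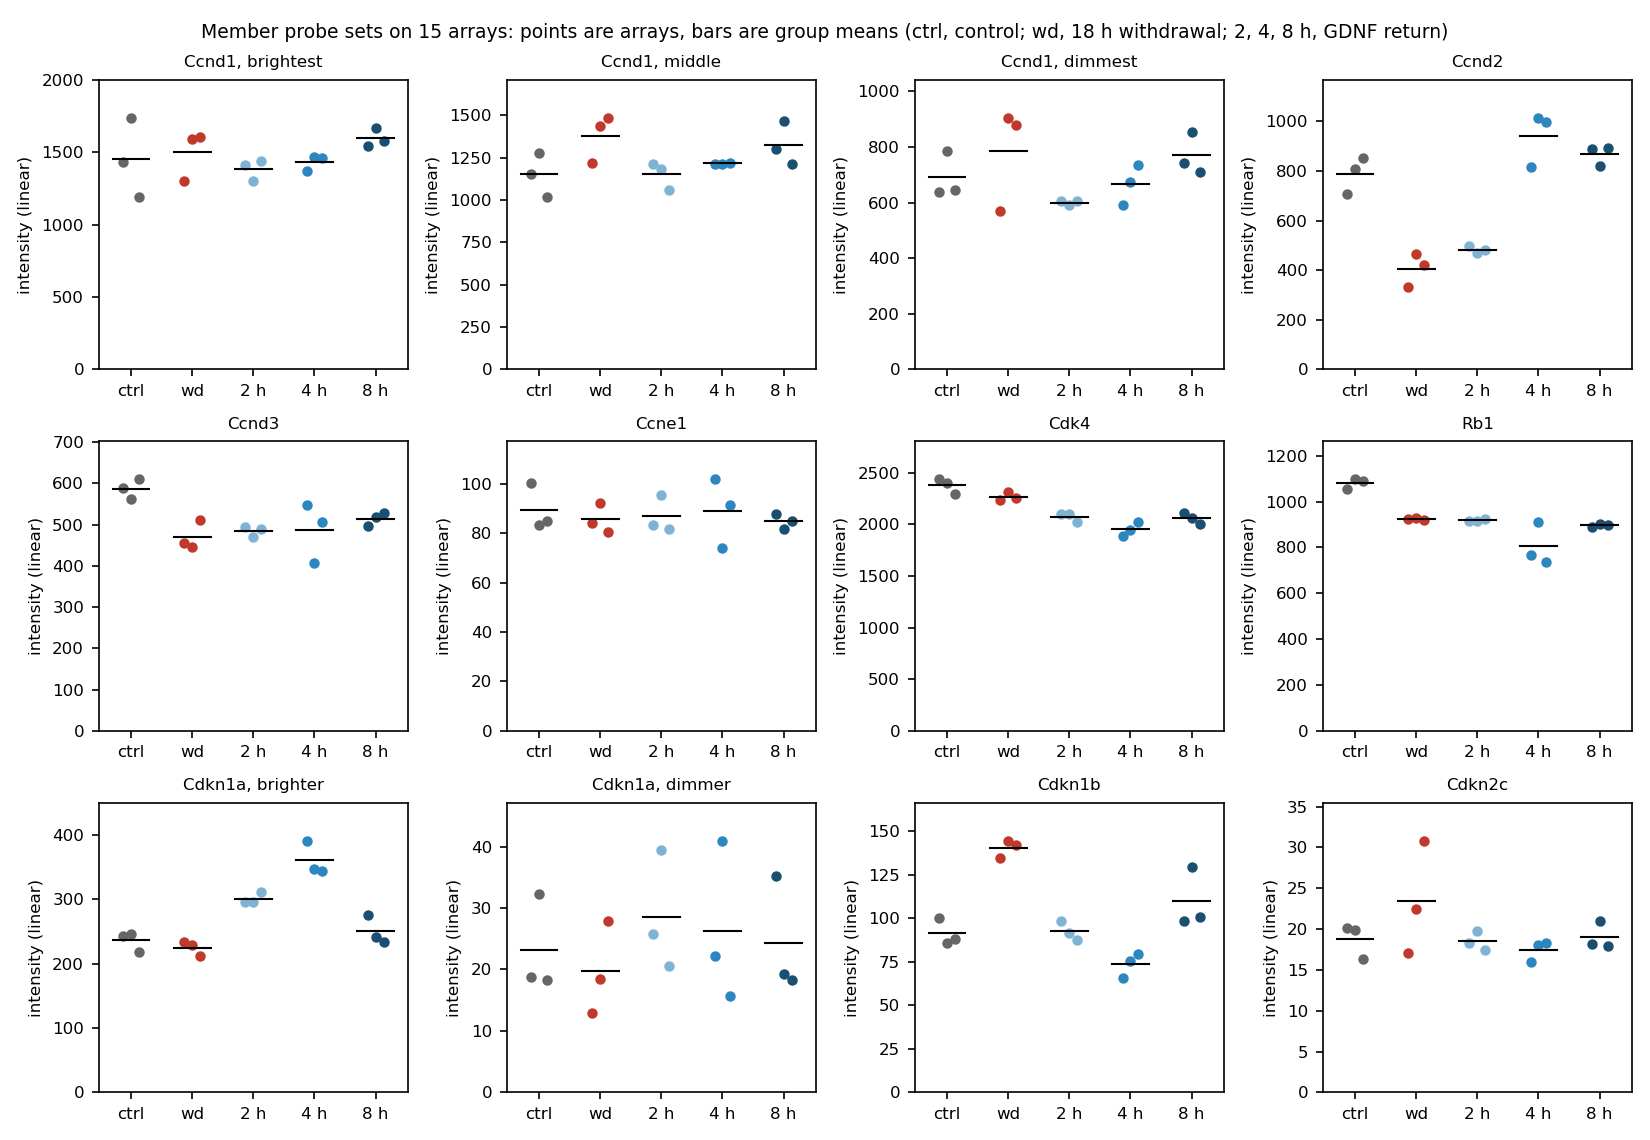
Intensity (linear scale, y axis from 0) of the 12 tested member probe sets in control, withdrawal and 2, 4 and 8 h of GDNF return (x axis), with points for arrays and bars for means of 3 arrays. Ccnd2 falls to about 406 after withdrawal and Cdkn1b reaches about 140, while Ccne1, Cdk4 and Rb1 stay within narrow ranges.

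Cdkn1b, the gene of p27, was the member that rose on withdrawal. Its tested probe set read 99.97, 86.04 and 88.2 in control, 134.6, 144.5 and 142.3 after withdrawal, 98.66, 91.48 and 87.49 at 2 h, 65.62, 75.39 and 79.56 at 4 h and 98.66, 129.5 and 100.9 at 8 h. All withdrawal arrays lay above all others, the 4 h arrays lay below all others, and 2 h overlapped control. The mean was 140.4 ± 5.21 after withdrawal and 91.4 ± 7.49 in control, 1.54-fold higher (log2 change 0.62 ± 0.11, limma adjusted p = 0.000978). Against withdrawal it fell by 0.60 at 2 h (adjusted p = 0.00122), by 0.94 at 4 h (1.52e-05) and by 0.37 at 8 h (0.0238), each ± 0.11. The 8 h call was lost without withdrawal 2 (0.0728), withdrawal 3 (0.058), 8 h 1 (0.1) or 8 h 3 (0.0945), and when only the groups compared entered the fit (0.0609).

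The p27 transcript was thus near the control level at 2 h (log2 change 0.02 against control, adjusted p = 0.928), where Ccnd2 still differed from control. At 4 h it was 73.52 ± 7.15, 0.32 below control on the log2 scale (adjusted p = 0.0533), with 0.0477 without 4 h 3 and 0.0265 without 8 h 2. At 8 h it was 109.7 ± 17.2, higher than at 4 h by 0.57 ± 0.11 (adjusted p = 0.00407), a comparison in which 9.66% of all probe sets passed; with only those groups in the fit the adjusted p was 0.0528. Against control the 8 h log2 change was 0.25 ± 0.11 (limma adjusted p = 0.154). From low to high the order was 4 h, control, 2 h, 8 h and withdrawal, and among neighbours only 8 h and withdrawal differed by the test. A second Cdkn1b probe set read 5.02 to 5.15 on every array, under the filter.

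Cdkn1a, the gene of p21, did not move on withdrawal past the threshold and rose after GDNF return. Its brighter probe set read 243.2, 246.6 and 218.5 in control, 233.7, 229 and 212.4 after withdrawal, 295.1, 295.6 and 310.6 at 2 h, 390.8, 346.4 and 343.7 at 4 h and 275.2, 241.2 and 234 at 8 h. The 4 h arrays lay above all others and the 2 h arrays above control, withdrawal and 8 h, while control overlapped withdrawal and 8 h. On withdrawal the log2 change was -0.07 ± 0.08 (limma adjusted p = 0.589). Means against the withdrawal mean of 225.02 ± 11.2 were 300.4 ± 8.8 at 2 h (1.34-fold, 0.42 ± 0.08, adjusted p = 0.00144), 360.3 ± 26.5 at 4 h (1.60-fold, 0.68 ± 0.08, 1.25e-05) and 250.1 ± 22 at 8 h (0.15 ± 0.08, 0.179). Against control the 2 h and 4 h values were higher by 0.35 (0.00475) and 0.61 (6.4e-05), and 8 h was not shown to differ (0.08, 0.561).

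The p21 rise was transient: 8 h was below 4 h by 0.53 on the log2 scale (adjusted p = 0.000545), in all 26 settings, and below 2 h by 0.27 (0.0199). The 8 h against 2 h call was lost without 2 h 3 (0.0703), 8 h 2 (0.073) or 8 h 3 (0.0833) and with the marker covariate (0.236). At 4 h the level exceeded 2 h by 0.26 ± 0.08 (0.0377). This call was lost without 2 h 1 (0.106), 2 h 2 (0.104), 2 h 3 (0.0611) or 4 h 1 (0.149). It was also lost without the 3 arrays named above together (0.155), without the filter (0.0685) and with only the groups compared in the fit (0.0527). A dimmer probe set for the same gene read 12.95 to 40.95 with 13 of 15 arrays at 16 or more, and passed in no comparison (SE 0.38, F test adjusted p = 0.73). Its 2 h and 4 h values of 25.77, 39.39 and 20.59 and of 22.2, 40.95 and 15.67 overlapped the withdrawal values of 12.95, 18.42 and 27.89.

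Cdkn2c, the gene of the INK4 inhibitor p18, lay close to the filter. Its tested probe set read 20.1, 19.85 and 16.37 in control, 17.02, 22.41 and 30.83 after withdrawal, 18.26, 19.78 and 17.45 at 2 h, 15.99, 18.01 and 18.27 at 4 h and 18.21, 21.04 and 17.94 at 8 h. All groups overlapped, and the log2 changes of 0.28 ± 0.17 on withdrawal and of -0.30, -0.39 and -0.26 at 2, 4 and 8 h against withdrawal did not pass (adjusted p = 0.257, 0.201, 0.0917 and 0.284). Without withdrawal 1 all 4 passed (adjusted p = 0.0314, 0.0206, 0.00712 and 0.0352), so this array decides them, and they also passed without the 3 arrays named above together (0.0385, 0.0238, 0.0276 and 0.0393). With the marker covariate 8 h against withdrawal passed (-0.44, 0.0251), and 8 h against 2 h was -0.42, against 0.04 without it, past the threshold in neither. A second probe set had group means of 3.36 to 3.38, under the filter.

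Rb1, the target of the cyclin D kinases, fell on withdrawal and stayed below control at every time after return. Intensities were 1056, 1097 and 1091 in control, 925.6, 928.3 and 917.7 after withdrawal, 914.6, 913.3 and 924.7 at 2 h, 767.9, 911.8 and 736 at 4 h and 887.5, 903.9 and 899.3 at 8 h. No array of another group reached the control range. The mean was 923.9 ± 5.51 after withdrawal and 1081 ± 22.1 in control, 1.17-fold lower (log2 change -0.23 ± 0.06, limma adjusted p = 0.0145; 0.0505 without the 3 arrays named above together). Against control the log2 change was -0.24 at 2 h (0.0108), -0.43 at 4 h (0.000137) and -0.27 at 8 h (0.00863), so the transcript was still below control at 8 h. With the marker covariate the 2 h value was 0.0588. Against withdrawal the log2 change was -0.01 at 2 h (0.926), -0.20 at 4 h (0.0182) and -0.04 at 8 h (0.657). The 4 h call was lost without withdrawal 2 (0.0505), 4 h 1 (0.0692) or 4 h 3 (0.0893) with only those groups in the fit (0.112) and without the 3 arrays named above together (0.121), and the 3 arrays at 4 h spanned 736 to 911.8. From low to high the order was 4 h, 8 h, 2 h, withdrawal and control, and among neighbours only withdrawal and control differed by the test (8 h against 4 h adjusted p = 0.106, but 0.00149 without 4 h 2; 8 h against 2 h 0.739).

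Over the 15 arrays, as a description across samples that share their groups, the leading Cdkn1b and Cdkn1a probe sets ran against each other (Pearson r = -0.78 on the log2 scale). Cdkn1b also ran against Ccnd2 (r = -0.61), and Ccnd2 and Cdkn1a were weakly related (r = 0.32). Group means of both were highest at 4 h and lowest after withdrawal. Mean log2 intensity in control and at 8 h was 9.62 and 9.76 for Ccnd2, near its top, and 7.88 and 7.96 for Cdkn1a, near its bottom. Cdk4 ran with Rb1 (r = 0.77) and against Cdkn1a (r = -0.75). Among 1538 other named genes with a group range of at least 0.5 on the log2 scale and an F test past the threshold, the patterns most like Ccnd2 were those of Tec (r = 0.96), Zfp703 (0.95) and Tacc2 (0.95). Those most like Cdkn1b were Cog4 (0.90), Cd99l2 (0.90) and Slc44a1 (0.89), and those most like Cdkn1a were Srxn1 (0.95), Smad7 (0.93) and Rhbdd1 (0.93).

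Of the other CDK inhibitors, 3 of 4 were tested, and Cdkn1c (p57) and Cdkn2d (p19) rose on withdrawal and fell after GDNF return, Cdkn2d from 4 h on. Cdkn1c read 218, 210.1 and 232 after withdrawal and 111, 120.1 and 106 in control, with 168, 174, 161 at 2 h, 142, 153, 169 at 4 h and 107, 116, 118 at 8 h. The log2 change was 0.97 on withdrawal (limma adjusted p = 8.17e-07) and -0.39 (0.0029), -0.51 (0.000259) and -0.96 (9.39e-07) at 2, 4 and 8 h against withdrawal. Cdkn2d changed by 0.51 on withdrawal (0.000255) and by -0.46 at 4 h (0.000349) and -0.59 at 8 h (5.44e-05). Cdkn1c was still above every control array at 2 h and 4 h and overlapped control at 8 h. Cdkn2a (p16 and p19ARF) passed as lower at 4 h against withdrawal and at 8 h against control, and these calls held in 8 and in 22 of 26 settings. It was the 1 gene of the 3 past the threshold at 8 h against control. The counts of these lists stand beside the shares of all probe sets given above, 21.1% on withdrawal, 26.1%, 30.6% and 25% at 2, 4 and 8 h against withdrawal and 12.3% at 8 h against control.

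The list of transcription factors known to act on cyclin D or CDK inhibitor genes had 6 of 8 members tested (Trp53 and Myc were not), with 2 higher and 1 lower on withdrawal. Foxo3, a forkhead factor known to raise p27 transcription when growth factor signalling is low, read 601, 665 and 623 after withdrawal and 226, 216 and 203 in control, with 417, 473 and 374 at 2 h, 279, 248 and 261 at 4 h and 246, 237 and 226 at 8 h. Its log2 change was 1.55 on withdrawal (adjusted p = 5.11e-09) and -0.59, -1.26 and -1.41 at 2, 4 and 8 h against withdrawal (0.000136, 2.93e-08 and 1.55e-08). Unlike Cdkn1b, Foxo3 at 2 h still lay above every control array. Foxo1, of the same family, rose by 0.39 on withdrawal (0.00366) and fell by 0.47 at 2 h (0.000921). Egr1, an immediate early factor, changed by -0.67 on withdrawal (4.58e-07) and by 1.44, 1.14 and 0.54 at 2, 4 and 8 h against withdrawal (2.37e-10, 7.16e-10 and 3.58e-06). In the counts of that list, 1 passed as higher and 3 as lower at 2 h and at 4 h, 1 and 2 at 8 h, and none at 8 h against control.

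**Figure D5:**
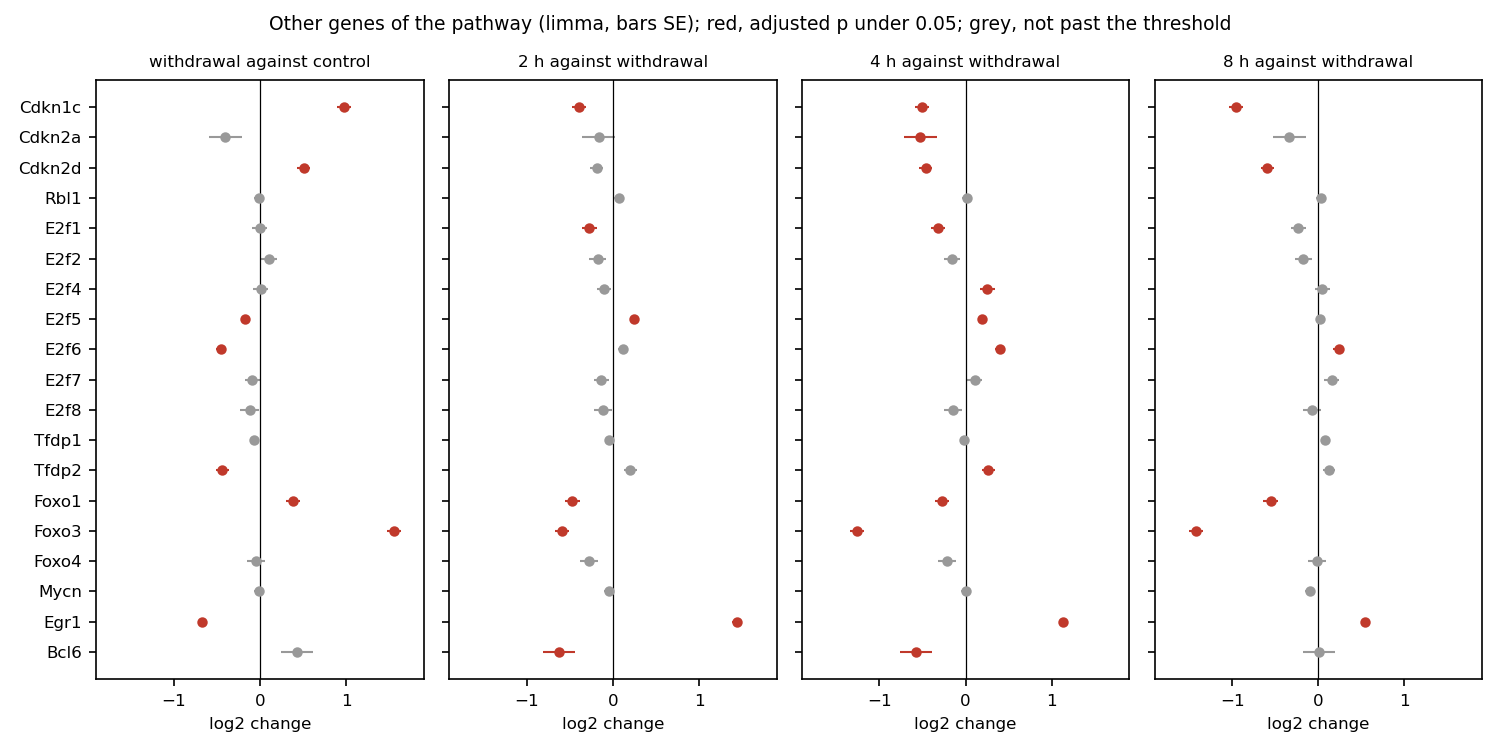
log2 change with its SE (limma) of 19 other genes of the pathway (CDK inhibitors, RB and E2F genes, and transcription factors that act on cyclin D or CDK inhibitor genes) in withdrawal against control and in 2, 4 and 8 h of GDNF return against withdrawal, with red points past an adjusted p of 0.05. Foxo3 and Cdkn1c lie to the right after withdrawal and to the left on return, and Egr1 does the reverse.

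Among RB family partners and E2F factors 10 of 12 were tested, with 3 lower and none higher on withdrawal, 1 higher and 1 lower at 2 h, 4 higher and 1 lower at 4 h and 1 higher at 8 h, each against withdrawal for the return times. E2f6, a repressive E2F, changed by -0.45 on withdrawal (limma adjusted p = 6.75e-05), 0.40 at 4 h (0.000116) and 0.24 at 8 h (0.0087). Tfdp2, a dimer partner of the E2Fs, changed by -0.44 on withdrawal (0.000664). E2f5, known as a partner of the RB relatives p107 and p130, changed by 0.24 at 2 h (0.00153) and 0.20 at 4 h (0.00469). E2f1, an activating E2F, changed by -0.32 at 4 h (0.011). The median of the list was -0.08 on withdrawal and 0.06 at 4 h, within 0.1 of 0.

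The E2F target genes of DNA replication, read as a downstream list, had 11 of 14 tested and changed by small amounts. On withdrawal 3 were lower and none higher, at 2 h against withdrawal 6 lower and 1 higher, at 4 h 4 lower, at 8 h 3 lower, and at 8 h against control 4 lower. At 2 h 7 of 11 thus passed, where 26.1% of all probe sets did and 14.2% as lower, and this count ran from 1 to 7 over the settings. Their median log2 change was -0.10 on withdrawal and -0.12, -0.08 and -0.03 at 2, 4 and 8 h against withdrawal. Cdt1, which licenses replication origins, changed by -0.21 on withdrawal (limma adjusted p = 0.00242), and Rrm1, a subunit of ribonucleotide reductase, by -0.30 at 8 h against withdrawal (9.64e-05) and -0.25 at 8 h against control (0.00115). Against withdrawal, the rise of Ccnd2 at 4 and 8 h therefore stood beside no gene of the replication list past the threshold as higher. Against 2 h, 2 were higher and 1 lower at 4 h, and 3 higher and 2 lower at 8 h. Of all probe sets 13.7% and 26.2% passed in those comparisons. The 8 other G1 cyclins, kinases and activators were all tested: 1 was higher and 1 lower on withdrawal, and none passed at 8 h against withdrawal. Ccnh, the cyclin of the CDK-activating kinase, changed by 0.18 at 2 h (0.00351) and 0.20 at 4 h (0.00155). Of 8 genes of D cyclin, cyclin E and inhibitor turnover 6 were tested, with 2 higher on withdrawal, 1 lower at 2 h, none past the threshold at 4 h and 1 lower at 8 h, and none of these calls held in all 26 settings. Cul1, a ubiquitin ligase scaffold, was higher at 8 h than at 2 h by 0.17 (0.00205), in all settings. Over the 6 main comparisons and all 6 lists, which held 8, 3, 10, 6, 6 and 11 tested genes, 86 changes passed. Of these, 40 passed in every one of the 26 settings, a count with no share of all probe sets beside it. Of all probe sets 12.3% to 30.6% passed in these comparisons. The lists were chosen with earlier results of these data known, so the count is a description only.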

How the data were processed

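RNA of 15 cultures (5 groups of 3, grouped by sample title) was read on single-colour arrays. The authors deposited 1 intensity per probe set and sample, linear as judged from the range of the values. GCRMA and Partek 6.3 are named, per the submitters' processing notes, with settings not given in the sources used here. GCRMA models background by probe sequence, so low intensities depend on that model.

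Values were log2-transformed and not normalized again. Probe sets at 4 or more on at least 3 arrays were kept (15856 of 31099, with 57 control probe sets left out). Symbols came from the platform annotation, updated through RefSeq. A single symbol was given for 20832 probe sets, of which 20764 matched, several for 436 and no symbol for 9831. Where a gene had several tested probe sets, that with the highest mean over all arrays led. The groups were fitted with limma (version 3.58.1, R version 4.3.3; lmFit, eBayes with an intensity trend, all arrays in 1 fit), two-sided, with Benjamini-Hochberg adjustment within each comparison and a threshold of 0.05. The script was tested on simulated data.

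The members, lists and comparisons were chosen with earlier results of these data known. The text names every member, and the rule for the lists allowed up to 4 genes past the threshold by smallest adjusted p in each comparison. Fewer are given, mostly those that passed in all settings, a choice made after their values were seen. Comparisons of 2 h and 4 h with control, of 4 h with 2 h and of 8 h with 4 h were added after the data were seen. Alternatives were the filter, a floor at 16, the intensity trend, median centring, quantile normalization, array weights, a marker covariate, a replicate block, only the groups compared, and leaving out arrays. Same-numbered cultures were checked for shared deviations: over 30 pairs the correlation ran from -0.138 to 0.389 (median 0.0403). Over 60 pairs of other numbers it ran from -0.330 to 0.358 (median -0.0124). The numbers were not taken as pairs in the main fit, and a replicate block is given among the alternatives. The 3 arrays left out together all carry number 1. Replicate arrays correlated at 0.994 or more within a group, and none held identical values.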

Additional observations from a re-analysis of the deposited data

Results flagged for a closer look

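Changes from withdrawal that differed between return times, by a test of the difference itself (limma, adjusted over all probe sets), concerned 4 members. At 8 h against 2 h 16.7% of member probe sets passed, where 26.2% of all did. At 4 h against 2 h the shares were 25% and 13.7%, and at 8 h against 4 h 16.7% and 9.66%. Ccnd2 was higher at 8 h than at 2 h (log2 difference 0.844 ± 0.11, adjusted p = 6.63e-05) and higher at 4 h than at 2 h (0.960, 4.05e-05). Cdkn1a was lower at 8 h than at 2 h (-0.268 ± 0.0779, adjusted p = 0.0199), higher at 4 h than at 2 h (0.260, 0.0377) and lower at 8 h than at 4 h (-0.528, 0.000545). The Cdkn1a calls against 2 h held in 22 of 26 settings at 8 h and in 19 of 26 at 4 h. Cdkn1b was higher at 8 h than at 4 h (0.571, 0.00407), in 25 of 26 settings. Rb1 was lower at 4 h than at 2 h (-0.195 ± 0.0602, adjusted p = 0.0439), and this call held in 9 of 26 settings. It was lost without control 1, withdrawal 1 and 4 h 1 together (0.162). All comparisons with 4 h apart from that with withdrawal were added after the data were seen.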

How the results depend on the processing

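Over 10 comparisons and 26 alternative settings, 3100 member changes were recomputed: 2973 kept their side of the threshold, 80 no longer passed and 47 newly passed. No change past the threshold under either setting turned its sign, while 121 changes that passed in neither did, 27 of them with the marker covariate. Calls kept in all settings were those of Ccnd2 on withdrawal, at 4 h and 8 h against withdrawal, at 8 h and 4 h against 2 h and at 2 h against control, of Cdkn1b on withdrawal and at 2 h and 4 h against it, of Cdkn1a at 2 h and 4 h against withdrawal and control and at 8 h against 4 h, of Cdk4 at 4 h against withdrawal and at 2, 4 and 8 h against control, and of Rb1 at 4 h and 8 h against control. The count of members past the threshold ranged, on leaving out 1 array, from 3 to 6 for withdrawal against control (4 with all arrays), 2 to 6 at 2 h against withdrawal (4), 4 to 8 at 4 h (5), 1 to 4 at 8 h (3), 2 to 2 at 8 h against control (2), 1 to 3 at 8 h against 2 h (2), and 5 to 8 for the F test (6). Without the intensity trend 2 members passed at 2 h against withdrawal; with the marker covariate 5 passed at 8 h against withdrawal and 1 at 8 h against 2 h; with only the groups compared 4 passed at 8 h against 2 h. The causes were not tested. No paired design was used: 6 of 15 arrays correlated best with their own number. With a replicate block 5, 5, 5, 3, 2 and 3 members passed in the 6 main comparisons and 7 in the F test.

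With only the groups compared, 2166 of all probe sets passed on withdrawal against 3342 with all arrays, and 1241 against 1953 at 8 h against control; with the marker covariate 2211 against 4157 at 8 h against 2 h. Median centring moved the split of higher and lower calls to 2185 and 1950 at 2 h against withdrawal (1888 and 2249 without it), 1961 and 1915 at 8 h (1526 and 2437) and 1028 and 939 at 8 h against control (766 and 1187). Probe sets near an intensity of 16 (Cdkn2c, the dimmer Cdkn1a probe set) have the least precision.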
